A study of Mus musculus with 5 samples.

Results

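Short interspersed elements (SINEs) and the related neuronal RNA BC1 were followed in single mouse cells of 3 types. The members were the repeat rows of the deposited read counts whose name begins with B1, B2, B3, B4, PB1, ID, MIR or BC1, and they numbered 1522 of 8654 repeat rows. Of these, 32 rows carry a single element name, such as B2_Mm1a or BC1_Mm, and 1490 carry several names at once, such as "B3A BC1_Mm", and were placed by the first. The 32 rows held between 97.5% and 99.6% of the SINE reads of each plate.

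SINEs are short retroposons that are copied by the enzymes of LINE elements and are transcribed by RNA polymerase III from a promoter inside the element, made of an A box and a B box. B1 and its older relative PB1 descend from 7SL RNA, the RNA of the signal recognition particle. B2, B3, ID and BC1 descend from tRNAs, B4 joins ID-like and B1-like parts, and MIR is an ancient family shared by mammals. BC1 is a small cytoplasmic RNA from a single gene, known from rodent neurons, where it binds translation factors. B2 RNA is known to rise under heat shock and to inhibit RNA polymerase II.

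Cells of ES R1, a mouse embryonic stem (ES) cell line that the labels describe as spheres derived from such cells, make up 3 plates. Of the other plates, 1 holds Neuro2A, which is a neuroblastoma line of the mouse, and 1 holds mouse embryonic fibroblasts (MEF). No treatment, age or genotype is given. A plate has 96 wells, each meant to hold 1 sorted cell, and every well received a barcode of its own during cDNA synthesis. First strands were primed with oligo-dT, wells were pooled before PCR and the protocols name no molecular identifiers, so reads are not independent molecules. The labels name no separate cultures for ES, and p-values measure the spread between these plates, which may be technical.

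A well was kept if it had 1000 gene reads or more, a total of 431 wells out of 480, namely 93, 66 and 94 over the ES plates, 86 for Neuro2A and 92 for MEF. Gene reads of the kept wells were 11432543, 262517 and 2134248 over the ES plates, 3155092 for Neuro2A and 2930884 for MEF. ES replicate 2 stands apart, since repeats took 82.8% of its reads against 22.9% to 40.0% elsewhere, and 1 barcode, its deepest, held 65.1% of its repeat reads and 25.9% of its gene reads. Its family and element levels are therefore given with and without that barcode. All 5 plates use the same 96 barcodes. Genes called MEF-specific were high in MEF and lower in the plates other than MEF and ES replicate 3 (199 genes). At their median, reads in ES replicate 3 equalled 10.8% of those in MEF. Genes called Neuro2A-specific were chosen likewise for Neuro2A and MEF (134 genes), and reads in MEF equalled 9.45% of those in Neuro2A. Genes used by both cell types of a pair would count in the same way, and whether these reads were carried over was not tested. In reads per 1000000 gene reads (RPM, the level used throughout), the 7 ES markers summed to 8363, 5718 and 8692 RPM over the ES plates, 0.317 for Neuro2A and 1.36 for MEF. The 7 MEF markers summed to 24666 in MEF and to between 1501 and 4288 elsewhere. The Neuro2A markers summed to 1414 in Neuro2A and to between 72.6 and 160.0 elsewhere, with Dbh and Th at 0 reads in every plate.

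The mouse Bc1 transcript is shown because BC1_Mm is the 1 member row named after a gene, and because its letters hold the internal promoter that tRNA-derived SINEs share. It lies on the + strand at chr7:144914470-144914637 (GRCm38, GENCODE M21 transcript Bc1-201), is 168 bases long and has 1 exon. Capitals mark the A box letters, searched as TNGCNNAGT and found at bases 14 to 22, and the B box letters, searched as GGTTCGNNC and found at bases 57 to 65.
Bc1: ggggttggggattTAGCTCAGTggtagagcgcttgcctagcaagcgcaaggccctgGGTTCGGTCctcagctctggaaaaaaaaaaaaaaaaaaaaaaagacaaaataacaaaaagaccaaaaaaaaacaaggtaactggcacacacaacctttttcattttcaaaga
Both strands were searched, the matches did not overlap and none lay on the other strand. Among 32851 RefSeq promoter windows of 300 bases, 10.3% held the A box letters and 1.33% the B box letters on either strand. The Bc1 window itself, searched on its given strand, held the A box letters but not the B box letters. These shares describe promoter windows and are not a background for matches inside a transcript. The BC1_Mm row may also collect reads from other genomic copies that resemble the gene, and a read on any SINE row may come from a polymerase III transcript or from a longer RNA that contains the element. The deposited counts do not separate these sources.

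SINEs took a large part of every plate. All SINE rows together stood at 256047, 2387540 and 626958 RPM over the ES plates, 239389 for Neuro2A and 154311 for MEF. Without its deepest barcode, ES replicate 2 stood at 1323060. The SINE share of repeat reads was 63.6%, 42.6% and 80.8% over the ES plates, 61.1% for Neuro2A and 44.5% for MEF, and 50.1% for ES replicate 2 without that barcode. Every ES plate sum was above those of Neuro2A and MEF, but as a share of repeats Neuro2A and MEF lay within the ES range. In the median well the order differed, with a SINE total of 215406, 898945 and 408926 RPM over the ES plates, 222491 for Neuro2A and 285890 for MEF, where ES replicate 1 was the lowest of the 5. The ES mean was 1090180 ± 1138750 RPM (SD, n = 3), and 735356 ± 541704 without the deepest barcode. Exact 95% (Clopper-Pearson) intervals of the family shares were at most 0.274 percentage points wide, and cover counting error only.

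**Figure D1:**
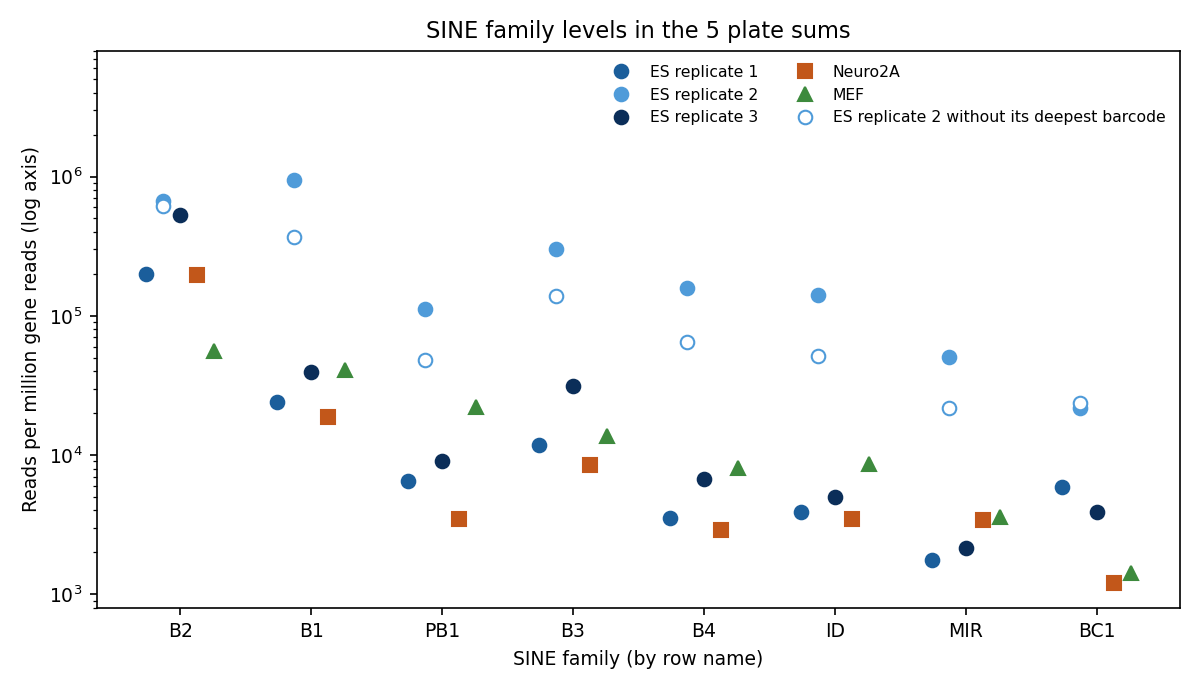
Level of each SINE family in the 5 plate sums, as RPM on a log axis, with ES replicate 2 also shown without its deepest barcode as an open circle. B2 is the highest family in every plate but ES replicate 2, where it is the highest only without the deepest barcode. The ES plates lie above MEF for B2 and BC1 but on both sides of it for the other 6 families.

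B2 was the most read family in 4 of 5 plates, and also in ES replicate 2 once its deepest barcode was left out. B2 reads stood at 198605, 665241 and 529334 RPM over the ES plates, 197631 for Neuro2A and 56318 for MEF. Without the deepest barcode, ES replicate 2 was at 609755. Every ES plate therefore lay above MEF, the lowest by 3.53-fold, while ES replicate 1 and Neuro2A differed by only 1.00-fold. Within SINE reads, B2 made up 77.6%, 27.9% and 84.4% over the ES plates, 82.6% for Neuro2A and 36.5% for MEF, and 46.1% in ES replicate 2 without its deepest barcode. ES replicate 2 and MEF were the low plates on that scale. If the reads at Neuro2A-specific genes were carried over, that rate would put carried-over reads at 35.7% of the B2 reads of MEF. With both estimates of carried-over reads subtracted MEF stood at 40172 RPM and ES replicate 3 at 608765.

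The 3 named B2 rows did not keep the same proportions between plates. Here and for every other element, the value in parentheses is that of ES replicate 2 without its deepest barcode. B2_Mm1a stood at 113826, 245097 (269867) and 358879 RPM over the ES plates, 92618 for Neuro2A and 28314 for MEF. B2_Mm1t stood at 49837, 166374 (165348) and 114009, then 44731 and 11406. B2_Mm2 stood at 34053, 250170 (172668) and 56035, then 59798 and 16489. For B2_Mm1a and B2_Mm1t every ES plate was above both other types, whereas the lowest ES plate was below Neuro2A for B2_Mm2. Of the B2 reads, B2_Mm1a supplied 57.3%, 36.8% and 67.8% over the ES plates, 46.9% for Neuro2A and 50.3% for MEF. B2_Mm2 supplied 17.1%, 37.6% and 10.6%, then 30.3% and 29.3%. Without its deepest barcode ES replicate 2 was at 44.3% for B2_Mm1a and 28.3% for B2_Mm2, so that its B2_Mm2 share lay below Neuro2A and MEF and not above them. In the median well B2_Mm1a was 67.6% of B2 in ES replicate 3, with the middle 50% of wells between 66.0% and 70.1%. In Neuro2A it was 46.9%, with the middle 50% between 44.2% and 49.6%.

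**Figure D2:**
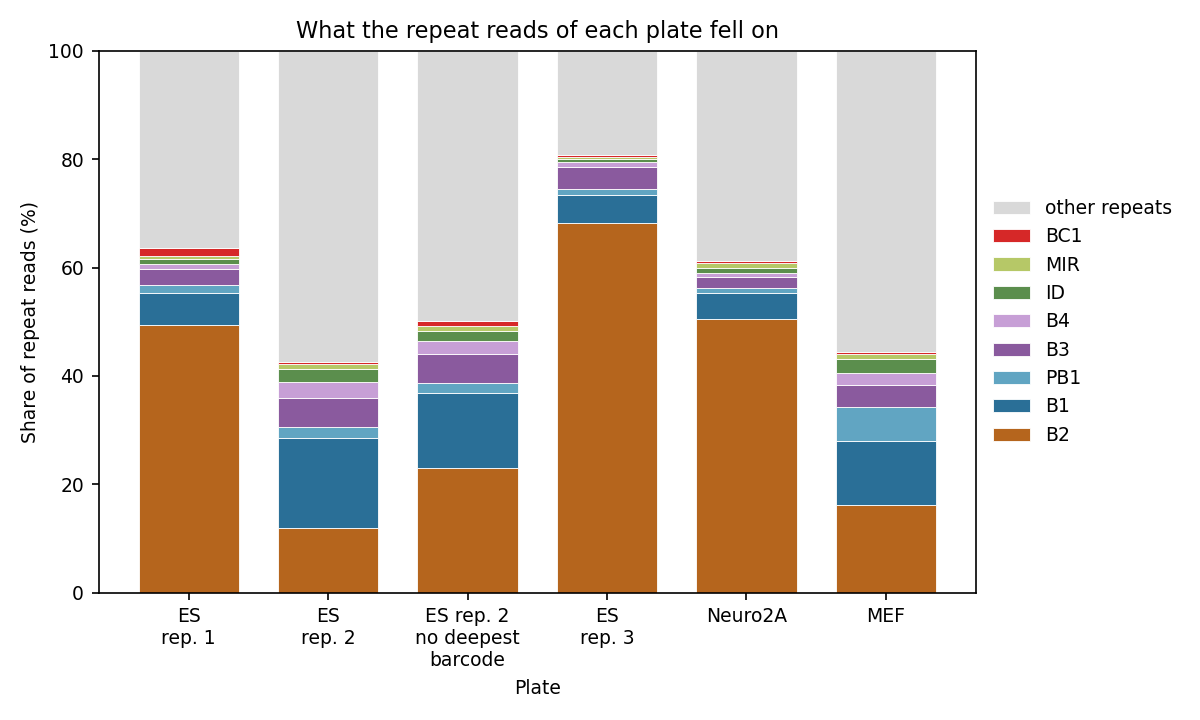
Share of repeat reads taken by each SINE family and by all other repeats, in percent, for the 5 plates and for ES replicate 2 without its deepest barcode. B2 takes 49.3% and 68.3% of repeat reads in ES replicates 1 and 3 and 50.5% in Neuro2A, but 16.2% in MEF, where B1 and PB1 take 11.7% and 6.39%.

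B1, the 7SL-derived family, was low beside B2 in ES replicates 1 and 3 and Neuro2A and close to it in MEF. B1 stood at 23947, 938644 and 39616 RPM over the ES plates, 18834 for Neuro2A and 40583 for MEF, with ES replicate 2 at 365786 without its deepest barcode. MEF thus lay inside the ES range, a little above ES replicate 3, and Neuro2A lay below every ES plate. The ratio of B2 to B1 reads was 8.29, 0.709 and 13.4 over the ES plates, 10.5 for Neuro2A and 1.39 for MEF, and 1.67 in ES replicate 2 without the deepest barcode. Of the SINE reads, B1 and PB1 together made up 11.9%, 44.0% and 7.77% over the ES plates, 9.32% for Neuro2A and 40.7% for MEF, and 31.3% without that barcode. ES replicate 2 and MEF, the plates with the highest B1 and PB1 shares, also had the fewest gene reads per kept well, at medians of 2520.5 and 12749 against 17003 to 101130. The part of depth in this difference between plates was not tested.

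Of the 10 named B1 rows, 9 held at least 1% of the SINE reads of some plate. B1_Mus1 stood at 5455, 281083 (105265) and 9077 RPM over the ES plates, 5174 for Neuro2A and 7709 for MEF. B1_Mus2 stood at 6443, 214626 (92690.5) and 12531, then 3763 and 6716, and B1_Mm, a young subfamily, at 3842, 135896 (57971) and 7185, then 3431 and 4081. These 3 rows differed by less than 2-fold between Neuro2A and MEF, and they were the 3 most read B1 rows in every ES plate and in Neuro2A. B1F, an older subfamily, stood at 1749.6, 38836 (14497) and 2775 RPM over the ES plates, 1308 for Neuro2A and 7387 for MEF. B1F1 stood at 1303, 15622 (6421) and 1422, then 572 and 3132. B1F thus supplied 18.2% of B1 reads in MEF against 4.14% to 7.31% in the other plates, and MEF was 5.65-fold above Neuro2A for B1F and 5.47-fold for B1F1. B1_Mur1 stood at 1069, 51821 (18429) and 1565 RPM over the ES plates, 1713 for Neuro2A and 3257 for MEF, and B1_Mur2 at 1092, 45555 (16075) and 1217, then 852 and 2232. B1_Mur3 stood at 1003, 40283 (14034) and 960.1, then 806 and 1893, and B1_Mur4 at 1219, 72125 (25117) and 1446, then 609 and 1900.5. MEF was above ES replicates 1 and 3 and Neuro2A for each of these 4 rows, and below ES replicate 2.

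PB1, the proto-B1 family, was the family in which MEF and Neuro2A differed most. Its reads stood at 6484, 111722 and 9097 RPM over the ES plates, 3469 for Neuro2A and 22146 for MEF, with ES replicate 2 at 47762 without its deepest barcode. MEF was above ES replicates 1 and 3 and below ES replicate 2, and Neuro2A was the lowest plate. PB1 was 14.4% of SINE reads in MEF and between 1.45% and 4.68% in the other plates. The row PB1 itself stood at 1358, 11813 (7968) and 3473 RPM over the ES plates, 307 for Neuro2A and 9756 for MEF, 31.7-fold apart between MEF and Neuro2A. PB1D10 stood at 2925, 46248 (18912) and 2966, then 1816 and 6743, PB1D7 at 786, 16619.9 (7207) and 1348, then 522 and 3019.6, and PB1D9 at 987, 32192 (11829) and 984, then 799 and 2125. In all 4 rows MEF was above ES replicates 1 and 3, and Neuro2A was below them. If the reads at MEF-specific genes were carried over, that rate would put carried-over reads at 36.2% of the PB1 reads of ES replicate 3. Subtracting this estimate left that plate at 6785 RPM.

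**Figure D3:**
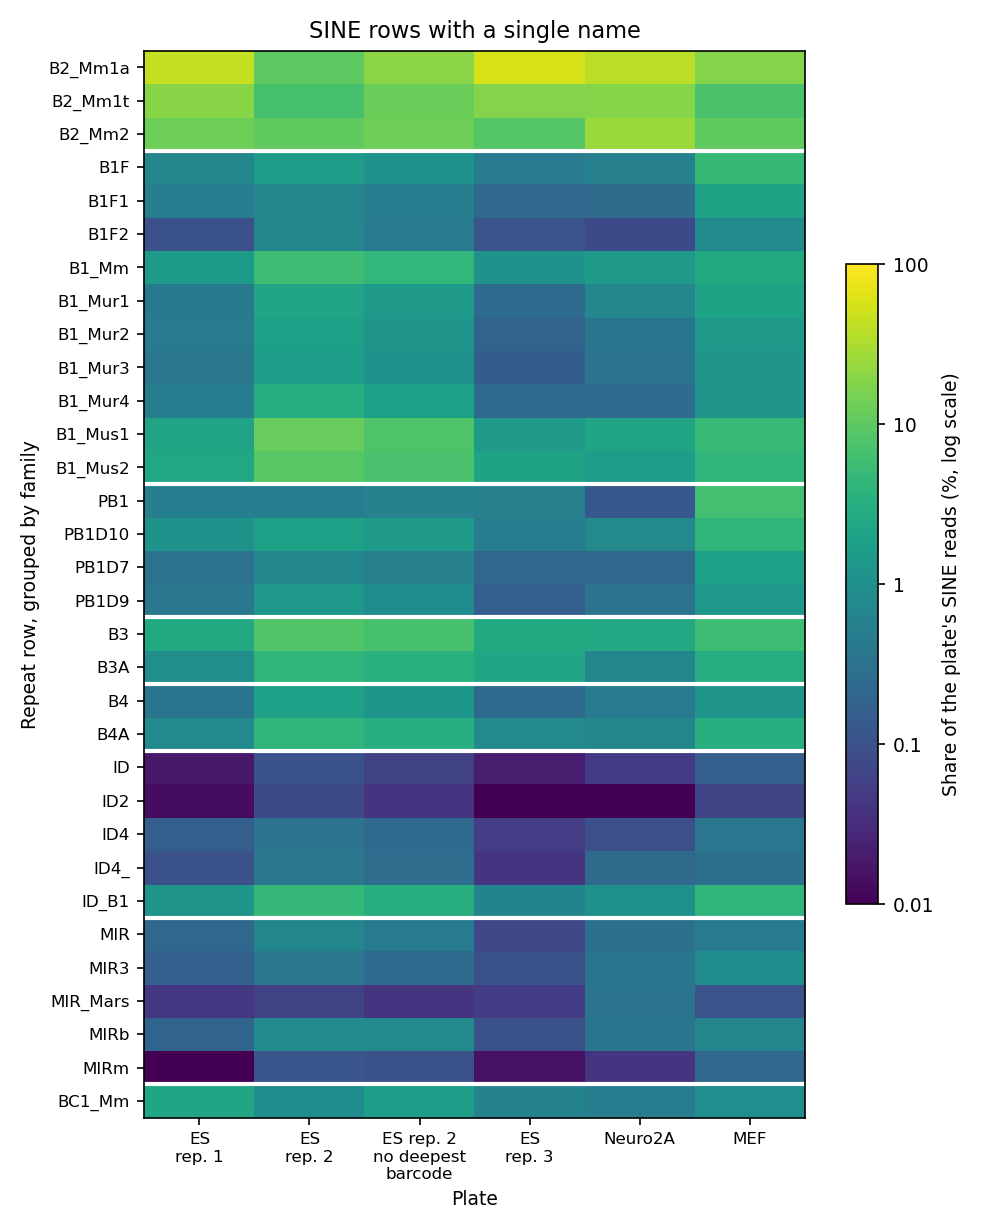
Share of each plate's SINE reads held by the 32 rows with a single name, in percent on a log colour scale. B2_Mm1a is the largest row in every column except the full ES replicate 2, and PB1, PB1D10, PB1D7, B1F and B1F1 have their highest shares in MEF.

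The B3, B4 and ID families also placed MEF between ES plates and Neuro2A below them, which for ID did not hold without the wells whose barcode ends in G. B3 reads stood at 11849, 301607 and 31159 RPM over the ES plates, 8464 for Neuro2A and 13643 for MEF, with 137969 for ES replicate 2 without its deepest barcode. B4 stood at 3558, 157034 and 6737, then 2907 and 8011, with 64576 without the barcode, and ID at 3923, 140947 and 5005, then 3479 and 8591, with 51704. The row B3 stood at 6858, 199206 (89462) and 16975 RPM over the ES plates, 6181 for Neuro2A and 8779.9 for MEF, and B3A at 2425, 97895 (46394) and 13958, then 1627 and 4766. B4A stood at 2055, 100626 (44487) and 4826, then 1621 and 4974, and the row B4 at 909, 47155 (16717) and 1448, then 1036 and 1795. For B4A the plates followed the family, whereas for the row B4 Neuro2A was above ES replicate 1. ID_B1, which repeat annotations place with B4 but which counts as ID by its name, stood at 2976, 110846 (40472) and 3997 RPM over the ES plates, 2433 for Neuro2A and 6632 for MEF. It supplied between 69.9% and 79.9% of ID reads. With ID_B1 counted under B4, the log2 ratio of Neuro2A to MEF for ID was −0.62, within 2-fold, whereas by name the ratio itself was 0.405.

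MIR, the oldest family, had the lowest level of the 8 in ES replicates 1 and 3. MIR stood at 1757, 50435 and 2134 RPM over the ES plates, 3409 for Neuro2A and 3597 for MEF, with 21806 for ES replicate 2 without its deepest barcode. Neuro2A was at 0.948 of the MEF level, and both were above ES replicates 1 and 3. None of the 5 MIR rows held 1% of SINE reads in any plate. MIR_Mars stood at 115, 1444 (540) and 327 RPM over the ES plates, 814 for Neuro2A and 162 for MEF. ES replicate 2 was above Neuro2A only with its deepest barcode.

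BC1 was higher in every ES plate than in Neuro2A or MEF. It stood at 5924, 21907 and 3875 RPM over the ES plates, 1196 for Neuro2A and 1423 for MEF. Leaving out the deepest barcode put ES replicate 2 at 23703. The lowest ES plate was 2.72-fold above MEF and 3.24-fold above Neuro2A. The highest and lowest ES plates were 5.65-fold apart, around a mean of 10569 ± 9873 RPM (SD, n = 3). BC1_Mm held between 96.8% and 98.5% of these reads and stood at 5736, 21351 (23230.5) and 3802 RPM over the ES plates, 1179 for Neuro2A and 1388 for MEF. Within SINE reads BC1 was 2.31%, 0.918% and 0.618% over the ES plates, 0.50% for Neuro2A and 0.922% for MEF, where ES and MEF overlapped. The row "B3A BC1_Mm", placed in B3 by its first name, was uneven between plates. It had 27788 reads in ES replicate 1, in 93 of 93 wells, and 1875 in Neuro2A, in 73 of 86 wells. In ES replicates 2 and 3 and MEF it had 1, 9 and 1 reads. Its level was 2431 RPM in ES replicate 1, 594 in Neuro2A and 0.341 in MEF. The BC1 levels given here leave this row out. Counted with BC1, the row would put Neuro2A above MEF and bring Neuro2A closer to ES replicate 3. Every ES plate would still lie above both.

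Single wells gave a similar order for B2 and a different one for B1. The median well had a B2 level of 148265, 472130 and 313832 RPM over the ES plates, 188806 for Neuro2A and 74108 for MEF. For B1 the medians were 24364, 215605 and 42179.6 RPM over the ES plates, 17659.7 for Neuro2A and 72642 for MEF. The MEF median for B1 was above its plate sum and above the medians of ES replicates 1 and 3. MEF wells were also the most unequal, with a 75th percentile of B1 7.41 times the 25th, against 1.69 to 4.0 in the other plates. B1 exceeded B2 in 40 of 92 MEF wells, in 5 of 93, 8 of 66 and 0 of 94 ES wells, and in 0 of 86 Neuro2A wells. PB1 alone exceeded B2 in 26 MEF wells. The MEF wells with B1 above B2 had a median of 3882 gene reads and the other MEF wells 31911.

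**Figure D4:**
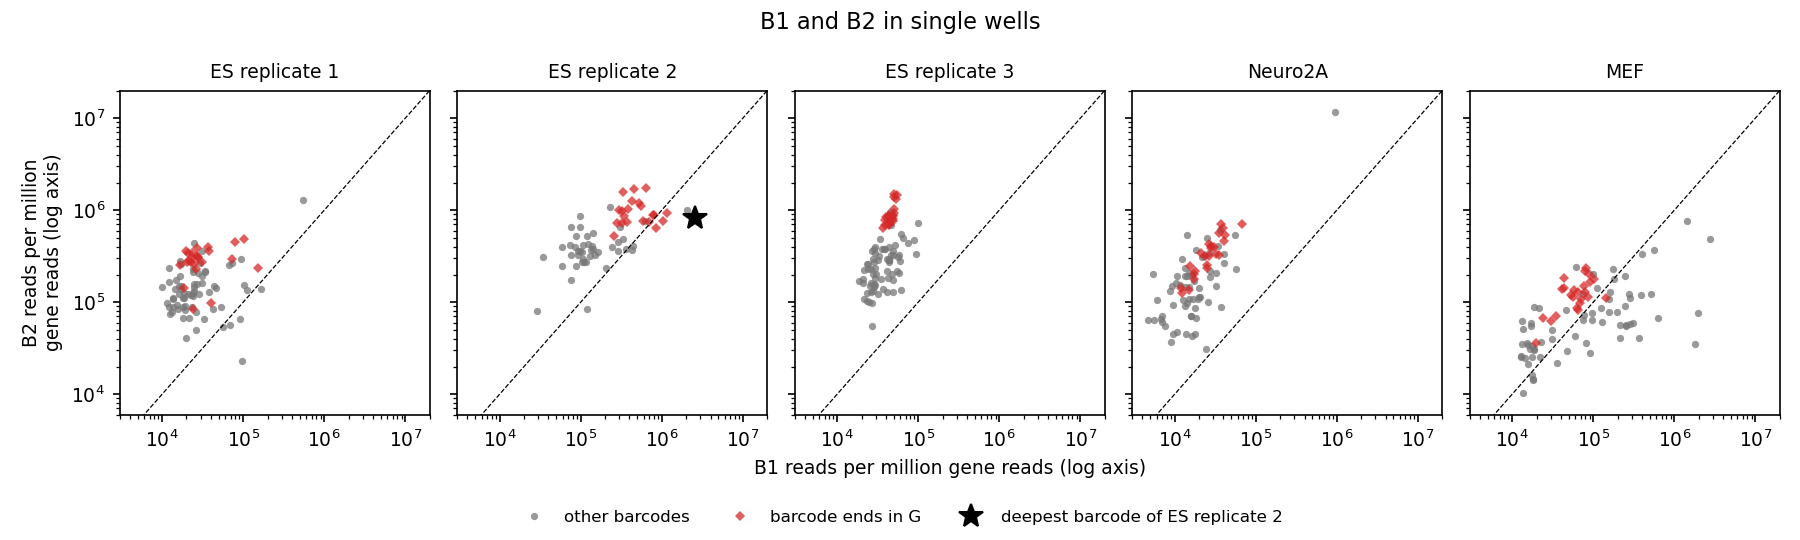
B1 and B2 levels (RPM, log axes) in each kept well, 1 panel per plate; the dashed line marks equal levels, red diamonds are wells whose barcode ends in G and the star is the deepest barcode of ES replicate 2. MEF wells spread widely in B1, with B1 above B2 in 40 of 92, and the other plates have most wells on the B2 side of the line.

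In MEF the B1 and PB1 levels were higher in wells with few gene reads, as were those of ID, B4 and all other repeats. Among the 30 MEF wells with the fewest (median 2480.0), median levels were 195538 RPM for B1, 168530 for PB1 and 113742 for B2. Among the 30 with the most (median 79284) they were 17927, 11528 and 34723. In the wells with the most gene reads of the other plates, PB1 medians were 5778, 22278 and 8040.1 over the ES plates and 2742 for Neuro2A, with ES replicate 2 above MEF and the others below. B1 medians there were 19191, 143195 and 43286 over the ES plates and 15703 for Neuro2A, so that MEF lay below every ES plate. These wells of ES replicate 2 had a median of 4864 gene reads. As a description over 92 wells of 1 library that share a denominator, Spearman's rho with gene reads per well was −0.87 for B1, −0.90 for PB1, −0.47 for B2 and −0.29 for BC1. In MEF it was also −0.81 for ID, −0.68 for B4 and −0.75 for repeats other than SINEs. For B1 rho was −0.59, 0.14 and −0.17 over the ES plates and −0.25 for Neuro2A. For PB1 it was −0.50, 0.055 and −0.37, then 0.14. The part of depth in these levels was not tested. As a share of SINE reads, PB1 made up 15.6% in the median MEF well against 0.755% to 3.22% in the median well of the other plates.

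A single barcode held most of the SINE reads of ES replicate 2, but less of its B2 and BC1. The deepest barcode had 71.1% of the B1 reads of that plate, 72.8% of ID, 32.1% of B2 and 19.8% of BC1. Its B1 level of 2577720 RPM was above all 65 other kept wells (median 204138), its B2 level of 823998 was exceeded by 16 wells and its BC1 level of 16768 by 40. For B2 the other wells were high as well, since the lowest of them, at 79623, was above the MEF median. For B1 the lowest of them, at 29110, was below the MEF median of 72642. For PB1 their median of 28944 was below the MEF median of 40055. Elsewhere, a Neuro2A well with 2934 gene reads had 11.7 B2 reads per gene read, or 11731100 RPM, against 709367 in the next well. In ES replicate 1 a well with 5292 gene reads was highest for B1, B2 and BC1, and its BC1 level of 343726 compared with 28858 in the next.

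BC1 was read in nearly every cell at full depth. At full depth it had reads in every kept well but 3 of 86 in Neuro2A. Thinned to 1000 gene reads per well, which left out no kept well and matched gene reads but not repeat reads, the share of wells with a BC1 read was 90.3%, 100.0% and 79.8% over the ES plates, 59.3% for Neuro2A and 68.5% for MEF. Exact 95% intervals ran from 70.2% to 87.4% in ES replicate 3, from 48.2% to 69.8% in Neuro2A and from 58.0% to 77.8% in MEF. They cover counting error over the wells of 1 plate and do not compare cell types. Each row was thinned by 1 random draw, and the intervals leave out the spread between draws. A separate draw for BC1_Mm, a part of BC1, gave 93.5%, 100% and 87.2% over the ES plates. It gave 58.1% for Neuro2A and 71.7% for MEF. Shares above those of the whole family can only come from the draw. The share in ES replicate 2, where repeats took most reads, stayed at 66 of 66 wells. The median well had a BC1 level of 6535, 22138 and 2656 RPM over the ES plates, 1073 for Neuro2A and 1608 for MEF, in the order of the plate sums. No cell type here was free of BC1 reads, so no background share from free RNA could be set.

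**Figure D5:**
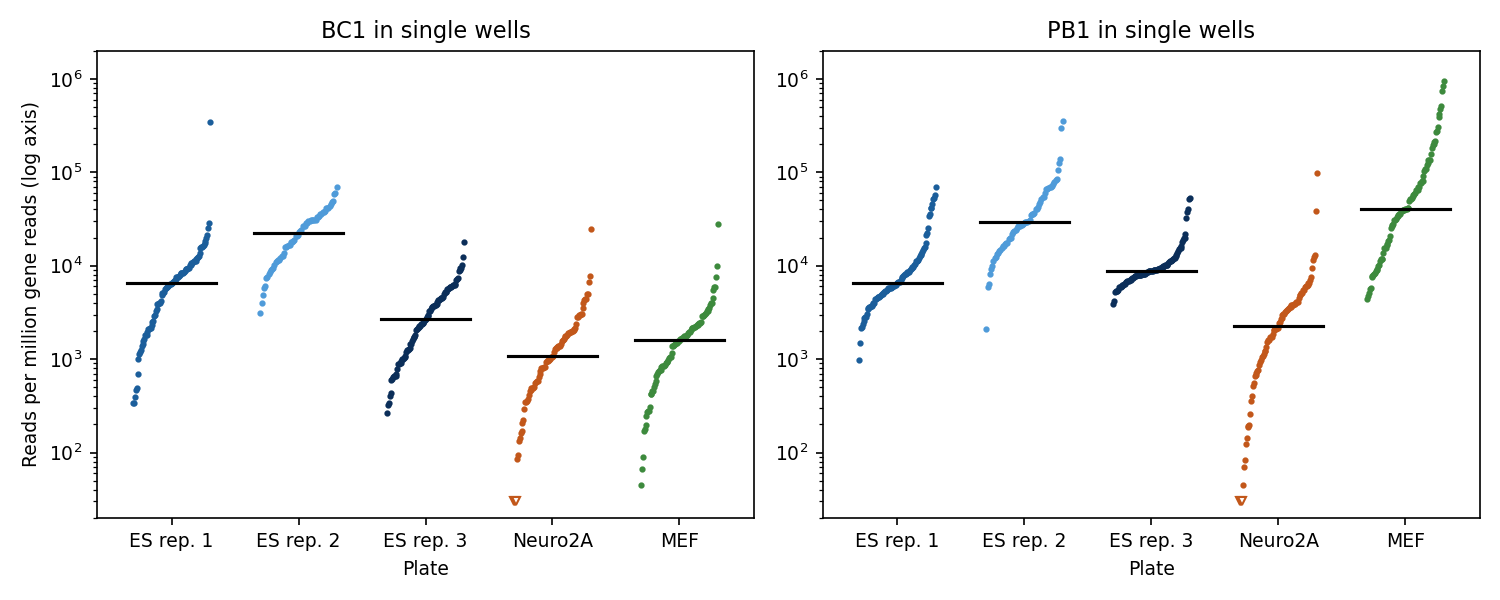
BC1 and PB1 levels (RPM, log axis) in each kept well, sorted within each plate; black lines are medians and open triangles at the bottom are wells with no read. BC1 medians run from 22138 in ES replicate 2 to 1073 in Neuro2A, and PB1 is highest in MEF with a median of 40055.

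The last base of the well barcode moved with B2, B3, B4 and BC1 in every plate. Wells whose barcode ends in G numbered 24 per plate and 21 in ES replicate 2. Their median B2 level was 2.30, 2.34 and 3.35 times that of other wells in the ES plates, 2.30 times in Neuro2A and 2.11 times in MEF. For BC1 the ratios were 1.73, 2.15 and 3.06, then 2.09 and 2.18. PB1 had ratios of 0.935, 2.51 and 0.988, then 1.59 and 0.731, and other repeats 0.991, 2.62 and 1.02, then 1.00 and 0.886. B3 had ratios of 1.71, 3.48 and 2.21, then 1.68 and 1.39, and B4 of 1.26, 3.49 and 1.83, then 1.61 and 1.40. B2, B3, B4 and BC1 thus had higher medians in G wells of all 5 plates, and B1, PB1, ID and MIR did not in every plate. Without these wells the lowest ES plate stood at 147582 B2 RPM, below Neuro2A at 151271, and at 3334 ID RPM, below Neuro2A at 3657. The lowest ES plate then remained above MEF by 3.35-fold for B2 and 1.99-fold for BC1.

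ES was compared with MEF and with Neuro2A by edgeR's quasi-likelihood test on the plate sums, over 15181 genes and repeat rows, with gene reads as library size and Benjamini-Hochberg adjustment at 0.05. In both contrasts 0 of 441 tested members were called in either direction, beside 0% of all features. The 3 ES plates gave 2 residual degrees of freedom and a biological coefficient of variation of 145%. At an unadjusted p under 0.05 in edgeR, 3 members were higher in ES than in MEF, beside 4.12% of all features, and 0 were lower, beside 0.659%. Against Neuro2A 12 were higher, beside 6.05%, and 0 lower, beside 1.51%. DESeq2 called 3 members higher in ES than in MEF, beside 2.23%, and 0 lower. Against Neuro2A it called 51 higher, beside 8.02%, and 0 lower, beside 0.198%. None of the 32 single-name rows was among those DESeq2 called, and limma-voom called 0. The members that DESeq2 called thus all carry several names. Of the 1490 such rows, 1189 had reads in ES replicate 2, 276 in Neuro2A and 349 in MEF. The filter on low counts can keep a row that was read in ES alone, so the direction of these calls was in part set in advance.

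No family total passed the test in edgeR or DESeq2. B2 differed between ES and MEF by 3.04 on the log2 scale, with an SE of 11 and an adjusted p of 0.919 in edgeR and of 1.39 and 0.228 in DESeq2. BC1 differed by 2.89, with an SE of 2.20 and an adjusted p of 0.659 in edgeR and of 1.56 and 0.338 in DESeq2. The edgeR errors, computed back from the F statistic, were wide for such abundant rows. The fit uses a prior with a trend on abundance. With that prior but all reads as library size, the edgeR SE of B2 against MEF was 2.95. The cause of the wide errors was not tested. B1 differed from MEF by 3.04 and PB1 by 0.94, with adjusted p of 0.899 and 0.920 in edgeR and 0.488 and 0.865 in DESeq2. Against Neuro2A the log2 differences were 1.23 for B2, 4.15 for B1, 3.61 for PB1 and 3.14 for BC1, with adjusted p from 0.557 to 0.957 in edgeR and from 0.173 to 0.630 in DESeq2. The median gene was itself 0.66 higher in ES than in MEF and 1.11 higher than in Neuro2A, and the median of all features 1.25 and 2.16. Without ES replicate 2 the differences from MEF were −0.35 for B1 and −1.51 for PB1, so their positive sign rests on that plate. B2 and BC1 stayed positive against MEF in each of 15 alternative settings, from 2.16 to 3.61 and from 1.68 to 3.29. Since every ES plate sum lay above the 1 MEF plate for both, leaving out an ES plate could not reverse these signs. Nor could another tool, filter or prior on the same sums, and counting ID_B1 with B4 touches neither family. The number of settings is therefore no added support.

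Plates that did not overlap were counted without a test. Every ES plate was above MEF for 4 of the 32 single-name rows, the 3 B2 rows and BC1_Mm, beside 29.6% of all features. Without the deepest barcode of ES replicate 2 the count was again 4, beside 28.1%. Every ES plate was below MEF for 0 of the 32, beside 24.1%. Against Neuro2A, every ES plate was above for 22 of the 32, beside 31.8%, and without the deepest barcode for 22, beside 29.9%. None was below, beside 21.3%. The 22 comprised 9 of 10 B1 rows, 2 of 3 B2 rows, both B3 rows, 1 of 2 B4 rows, 3 of 5 ID rows, all 4 PB1 rows and BC1_Mm, and no MIR row. Of all 441 tested members, rows with several names included, every ES plate was above MEF for 94 and below it for 27, and above Neuro2A for 175 and below it for 11. Above Neuro2A this is 39.7% of the members tested, closer to the share of all features than the single-name rows are. Rows with several names could pass the filter on reads in ES alone, so the 94 and the 175 were in part set by that filter.

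Neuro2A and MEF had 1 plate each, so they were compared by ratio with no test. B2 was 3.51-fold higher in Neuro2A, whereas B1 stood at 0.464, B4 at 0.363, PB1 at 0.157 and ID at 0.405 of the MEF level. B3 at 0.620 and BC1 at 0.841 were within 2-fold. The BC1 ratio leaves out the row "B3A BC1_Mm", and with that row Neuro2A would lie above MEF. Of the 32 single-name rows, 4 were over 2-fold higher in Neuro2A, beside 31.2% of all features, and 17 were over 2-fold lower, beside 35.8%. The 4 were the 3 B2 rows and MIR_Mars.

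Genes of polymerase III transcription and genes that bind or silence SINEs were read from 4 lists. The initiation list includes subunits of the complex for snRNA promoters. Of the tested members of these lists, edgeR called none in either contrast. Of 13 tested RNA polymerase III subunits 0 were called, and their summed level ran from 632 to 843 RPM over the 5 plates. Rpo1-3, a subunit shared with polymerase I, stood at 211, 145 and 194 RPM over the ES plates, 82.4 for Neuro2A and 290.4 for MEF. Polr3k stood at 121, 38.1 and 94.6, then 129.6 and 103, and Polr3g, a subunit form known from embryonic stem cells, at 70.3, 45.7 and 122, then 178 and 6.48. MEF was the low plate for Polr3g, and its log2 difference from ES was 3.61 (edgeR SE 1.32, adjusted p = 0.659).

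Of 16 tested initiation factors, Maf1 included, edgeR called 0. Gtf3c2, a TFIIIC subunit, stood at 170.0, 194 and 104 RPM over the ES plates, 312 for Neuro2A and 73.7 for MEF. Bdp1, of TFIIIB, stood at 23.9, 133 and 70.3, then 191 and 76.4, and Snapc3, of the complex for snRNA promoters, at 128, 183 and 33.3, then 30.1 and 80.5. Of 15 tested proteins that bind SINE or BC1 RNA, edgeR also called 0. Hnrpa2b1, a BC1-binding hnRNP, stood at 2481, 1562 and 1259 RPM over the ES plates, 3874 for Neuro2A and 795 for MEF. Pabpc1, the poly(A)-binding protein, stood at 1659, 1150.4 and 809, then 821 and 172, and Ssb, the La protein, at 659, 430.4 and 525, then 682 and 254. MEF was the lowest plate for Gtf3c2 and for the 3 binding proteins named, but not for every member of that list. Srp14 was highest in MEF, at 211 RPM. Fmr1 and Syncrip stood at 319 and 288 RPM in MEF, below ES replicate 1 alone.

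Of 14 tested genes for chromatin silencing of SINEs, edgeR called 0. Trim28, the co-repressor KAP1, stood at 672, 427 and 507 RPM over the ES plates, 210.5 for Neuro2A and 176 for MEF. Cbx5, which encodes HP1 alpha, stood at 227, 320.0 and 405, then 158 and 408, and Hells, a remodeller needed for DNA methylation of repeats, at 532, 335 and 294, then 197 and 11.3. MEF was the lowest plate for Trim28 and Hells but not for Cbx5. Median log2 differences of ES from MEF were 1.01, 1.28, 0.93 and 0.84 for the 4 lists in the order given, beside 0.66 for all genes, and those from Neuro2A −0.37, 0.78, −0.095 and 0.60, beside 1.11. At an unadjusted p under 0.05 in edgeR, 1, 1, 1 and 3 of their genes were higher in ES than in MEF, beside 4.12% of all features, and 2, 1, 0 and 1 higher than in Neuro2A, beside 6.05%, with 0 lower.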

How the data were processed

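The deposited files hold raw hit counts per barcode and feature, per the file headers and the authors' readme. The submitters' processing notes name Bowtie. For its version, the build, the annotation and reads with many matching copies, the record is "not given in the sources used here". Of 116 barcode columns per plate, 20 held only 0 and were dropped, and a row absent from a plate was taken as 0 reads.

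Members were found by row name, the counts of kept wells were added up by plate, and levels were set per 1000000 gene reads, with mitochondrial and repeat rows left out of the library size. edgeR 4.0.16 (glmQLFit, glmQLFTest, filterByExpr) was fitted to all 5 plates with group means, and the 8 families and their total were added as summed rows in a separate fit. Its test gives no standard error, and the edgeR SE printed is the absolute log2 difference divided by the square root of the F statistic. The prior of this fit has a trend on abundance, and the errors were wide for the summed rows. The errors and adjusted p of DESeq2 1.42.0 are therefore printed beside them. The test code was run on simulated counts with much less spread between plates than these data have. That run does not measure the power of the test here. Alternatives were TMM and DESeq2 size factors, all reads as library size, DESeq2, limma-voom (limma 3.58.1), no filter, all wells, sets of wells left out, ES plates left out, carried-over reads subtracted and ID_B1 counted with B4. Another prior in edgeR was chosen after seeing the data.

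Elements were described singly where they held at least 1% of the SINE reads of a plate, and MIR_Mars was named after its values were seen. In each gene list the 3 genes with the highest mean level were named. In the polymerase III list, 2 genes found to belong to polymerase I alone were removed and the shared subunit Rpo1-1 was entered after results were seen. The members, lists and tests were chosen with earlier results of these data known. Cells of a plate were not treated as replicates. Bc1 was read from the GENCODE M21 transcripts (GRCm38), and promoter windows are those of RefSeq. Python 3.11.15, pandas 2.3.3 and R 4.3.3 were used.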

Additional observations from a re-analysis of the deposited data

How the results depend on the processing

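With edgeR and limma-voom no member was called under any alternative, whereas DESeq2 called 3 members for ES against MEF and 51 for ES against Neuro2A. Leaving out 1 ES plate moved the log2 difference from MEF between −0.35 and 3.59 for B1, −0.64 and 3.35 for B4, −1.51 and 1.45 for PB1, −0.94 and 3.09 for ID and −0.89 and 2.87 for MIR, and that from Neuro2A between −0.81 and 2.95 for MIR. The low end is without ES replicate 2 in each case. PB1 against MEF also changed sign with all reads as library size (−0.79), with limma-voom (−0.061) and without the deepest barcode of ES replicate 2 (−0.069). MIR in Neuro2A against MEF had a log2 ratio of 0.048 without wells whose barcode ends in G, and the cause was not tested. The other family differences, B2 and BC1 included, kept their sign in the settings run. For B2 and BC1 against MEF many of these settings could not have reversed it. With all reads as library size the median gene stood −0.016 from MEF and 0.52 from Neuro2A. No paired analysis was possible because the replicate numbers follow accession order only and pair no plates. ES replicate 2, with 262517 gene reads, limits every ES mean.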

Other observations

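Some repeat rows outside the name rule relate to the families above. RSINE1, a rodent SINE whose row name begins with none of the prefixes, stood at 2724, 95659 and 16746 RPM over the ES plates, 1832 for Neuro2A and 3481 for MEF. ES replicates 2 and 3 were above MEF and ES replicate 1 below it. In ES replicate 2, 67.4% of RSINE1 reads came from 1 well, and the level was 42029.7 without its deepest barcode. The 7SL RNA row, the parent of B1, stood at 352, 617 and 525, then 634 and 1537, highest in MEF. The 4.5S RNA row, a small RNA related to B1, stood at 99.8, 1745 and 692, then 444 and 930.4, highest in ES replicate 2. Rows of tRNAs together stood at 455, 3345 and 272, then 133 and 223.

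The major satellite row GSAT_MM stood at 1798, 148013 and 2614 RPM over the ES plates, 627 for Neuro2A and 8649 for MEF, and 74.3% of it in ES replicate 2 came from 1 well. The (A)n row stood at 22581, 88448 and 8723, then 1937 and 3917.

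Wells under 1000 gene reads, which were left out, numbered 3, 30 and 2 over the ES plates, 10 for Neuro2A and 4 for MEF. They had 1.41, 1.33 and 0.715, then 0.332 and 1.98 SINE reads per gene read. The MEF value compares with 0.154 in the kept wells. Rows in which a SINE name follows the name of another repeat, which the rule does not count, held between 0.117% and 0.371% of repeat reads.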
